A study of Mus musculus with 8 samples.

Results

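The genes described here make, acylate, export or release the Sonic hedgehog protein. They are Shh itself, the acyltransferase gene Hhat, the exporter gene Disp1, and Scube1, Scube2 and Scube3, which encode secreted glycoproteins with EGF-like repeats. Every probe set that the platform annotation of 2016 gives to exactly 1 of these 6 genes was taken, which gave 9 of the 45101 probe sets on the array, with 2 each for Shh, Hhat and Disp1. Where a gene has 2, the one with the higher mean over the 8 arrays is called the leading probe set. All 9 passed the filter on low values, a mean log2(signal + 9) of at least 6.12 over the 8 arrays.

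The arrays measured RNA from mandibular molar tooth germs of embryos of ICR mice, an outbred stock. Each mother had received 1 intraperitoneal injection at embryonic day 14, and the germs were dissected 24 hours later. The first group received 5E1, an IgG1 antibody that binds the Shh protein, at 10 mg/kg, and its control group received 40-1a, an IgG1 antibody against β-galactosidase, at 10 mg/kg. The third group received cyclopamine, an antagonist of the Hedgehog signal transducer Smo, at 10 mg/kg, and the last group 1 ml of PBS. No vehicle of cyclopamine is named in the labels, and the agents went to the mother, so the dose that reached each embryo is not known. Each group had 2 arrays, called biological replicates, with 1 array for each RNA sample. The labels do not say whether germs of several embryos or litters were pooled, so a p-value reflects the scatter among these 8 arrays, which may be technical.

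Shh is made in the dental epithelium, most strongly in its signalling centre, the enamel knot, and acts on epithelium and on the underlying mesenchyme. The precursor cleaves itself and gains a cholesterol at the end of its signalling part. Hhat then attaches palmitate to the other end, and this double lipid holds the protein in the membrane. Disp1, a multipass membrane protein related to the receptor Ptch1, hands the cholesterol end to Scube proteins, which carry the ligand away from the cell. 5E1 binds the Shh protein outside the cell, and cyclopamine acts in the receiving cell. Whether either agent touches the steps that these genes encode was not tested.

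The MAS5 signals were scaled by the authors to a common trimmed mean, which was 500.0 on every array. The arrays were clustered hierarchically on 23576 probe sets and cut into 3 clusters, a number that was set and not estimated. These clusters did not follow the injections. Replicate 1 of 5E1, 40-1a and PBS formed the first, replicate 2 of all 4 groups the second, and cyclopamine replicate 1 stood alone. Signals of the labelled tissue were present, since the lowest of 10 epithelial marker genes was at 937.8 or more and the lowest of 12 dental mesenchyme genes at 341.8 or more on every array. Skeletal muscle genes were measured as well, with a summed signal over 12 genes of 3576 to 3881 after 5E1, 1154 to 9298 after 40-1a, 2788 to 10801 after cyclopamine and 1919 to 3496 after PBS, and none was at 0. In these bulk samples, fewer cells of a type and less RNA per cell cannot be told apart.

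Before the members, the genes that read out the pathway give the scale of the blocking. Ptch1, the Hedgehog receptor and a feedback target, had signals of 2122 and 1553 after 5E1, against 11322 and 7180 after 40-1a. After cyclopamine it had 9683 and 5793, against 9611 and 8474 after PBS. So both 5E1 arrays lay below every other array for Ptch1, while the cyclopamine arrays lay on both sides of the PBS arrays.

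No probe set of the 6 genes passed the test in any comparison. The test was limma on log2(signal + 9), with p-values adjusted over all 23576 probe sets by Benjamini-Hochberg and a threshold of 0.05. For 5E1 against 40-1a, limma called 0 of all probe sets (0%), with 236 (1%) at an unadjusted p under 0.05, and 0 of the 9. For cyclopamine against PBS it called 0 (0%), with 623 (2.64%) at an unadjusted p under 0.05, and again 0 of the 9. For both blocking agents against both controls it called 0 (0%), with 353 (1.5%) at an unadjusted p under 0.05, of which 1 was a member, Scube1. If nothing changed and p-values were evenly spread, a share of 0.05 would be expected under that threshold. The shares here were lower, for a cause that was not tested. A missing call therefore does not show that a gene was unchanged. With 2 arrays against 2 an exact permutation test of a single value cannot go below a p of 0.333. The values below are therefore given as differences with their intervals, and as whether the arrays of the groups overlap.

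After 5E1, 8 of the 9 probe sets had a higher mean than after 40-1a and 1, that of Scube1, had a lower one. Over all probe sets 47.3% had a higher mean. The median log2 difference of the 9 was 0.25, beside -0.01 over all probe sets tested. On 4 of the 9, both 5E1 arrays lay above both 40-1a arrays, which 9.35% of all probe sets did, and on Scube1 both lay below, which 11.2% did. These 4 were both probe sets of Shh, the second probe set of Disp1 and Scube3. After cyclopamine only 3 of the 9 had a higher mean than after PBS (45.9% over all), with a median of -0.19, beside -0.03 over all probe sets. The cyclopamine arrays lay above both PBS arrays on 0 of the 9 (14.7% over all) and below both on 1, Scube1 (17.7% over all). For both agents against both controls 5 of the 9 had a higher and 4 a lower mean (45.3% higher over all), and 0 lay above the control arrays without overlap (0.573% over all). The 9 probe sets are not independent of each other, since 3 genes hold 2 each.

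**Figure D1:**
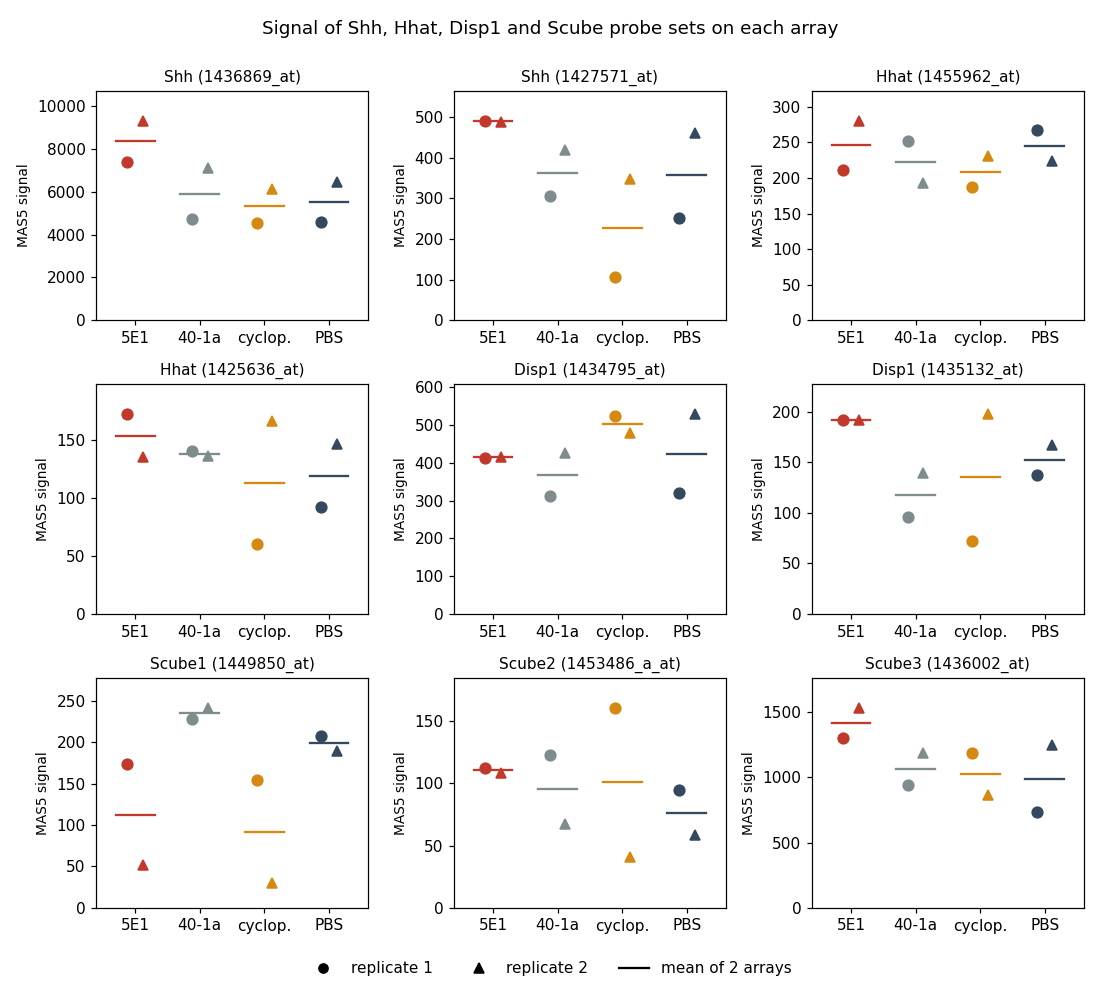
MAS5 signal (linear axis from 0) of the 9 probe sets on each of the 8 arrays, by injection group, with circles for replicate 1, triangles for replicate 2 and a bar at the mean of 2 arrays. The leading Shh probe set is highest on the 2 arrays of 5E1 (7388 and 9306), and Scube1 is lower on the 4 arrays of 5E1 and cyclopamine than on the 4 arrays of 40-1a and PBS.

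Shh, the ligand, had the strongest signal after the antibody that binds its protein. Its leading probe set, 1436869_at, had signals of 7388 and 9306 after 5E1, against 4701 and 7117 after 40-1a. The cyclopamine arrays gave 4549 and 6134, against 4562 and 6443 after PBS. Both 5E1 arrays were above the other 6 arrays, while cyclopamine replicate 1 was the lowest of the 8, just below PBS replicate 1, and replicate 2 lay between the PBS arrays. The mean after 5E1 was 8347 ± 1357 and after 40-1a 5909 ± 1708 (SD, n = 2 each). On the log2(signal + 9) scale the difference was 0.52, or 1.43-fold (SE 0.27, 95% interval -0.10 to 1.14), which did not pass (unadjusted p = 0.0895, adjusted p = 1.00, limma). After cyclopamine the mean was 5341 ± 1121, against 5502 ± 1330 after PBS (SD, n = 2 each), a log2 difference of -0.04 (SE 0.27, 95% interval -0.66 to 0.58).

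The second Shh probe set, 1427571_at, gave the same direction for the antibody. Its signals were 491.8 and 488.1 after 5E1, against 306.0 and 419.4 after 40-1a. Again both 5E1 arrays were the highest of the 8. The log2 difference was 0.44 (SE 0.52, 95% interval -0.75 to 1.63). After cyclopamine this probe set had 107.7 and 347.2, against 252.8 and 462.1 after PBS, so that the groups overlapped. That log2 difference of -0.78 (SE 0.52) rested on cyclopamine replicate 1, the array that stood apart, and was 0.02 without it. Testing whether the 2 agents differed in their effects gave 0.56 (SE 0.38) for the leading and 1.23 (SE 0.73) for the second probe set, neither of which passed (adjusted p = 1.00, limma). The value of the leading probe set was 0.26 without 40-1a replicate 1 and 0.85 without 40-1a replicate 2, and that of the second was 0.42 without cyclopamine replicate 1 and 2.03 without cyclopamine replicate 2. In that test limma called 0 of all probe sets (0%), with 378 (1.6%) at an unadjusted p under 0.05 and 0 of the 9 among them. The effect of 5E1 exceeded that of cyclopamine on 8 of the 9, as on 51.8% of all probe sets.

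On the leading Shh probe set replicate 2 was above replicate 1 in 4 of 4 groups, by 0.33 to 0.60 on the log2 scale. The epithelial markers were also higher on replicate 2, with mean log2 deviations of -0.34 and 0.37 on replicates 1 and 2 of 5E1, -0.26 and 0.35 for 40-1a, -0.01 and 0.34 for cyclopamine and -0.34 and -0.11 for PBS. Their part in this gap was not tested. Between 5E1 and 40-1a, 2 of 10 epithelial marker genes had a higher and 8 a lower mean, with a median log2 difference of -0.04. Their summed signal ran from 76032 to 125069 after 5E1 and from 79095 to 125542 after 40-1a, with none at 0. Their part in the Shh difference between these groups was not tested. Taken relative to the mean of these markers on each array, the leading Shh probe set was 0.55 higher after 5E1 than after 40-1a, and -0.42 after cyclopamine against PBS, where 10 of 10 epithelial genes had higher means. Within the first array cluster the 5E1 array exceeded the 40-1a array by 0.65 and within the second by 0.39 on the leading probe set, and by 0.67 and 0.21 on the second probe set. Without 40-1a replicate 1 the difference of the leading probe set was 0.22, and without 5E1 replicate 2 it was 0.35.

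**Figure D2:**
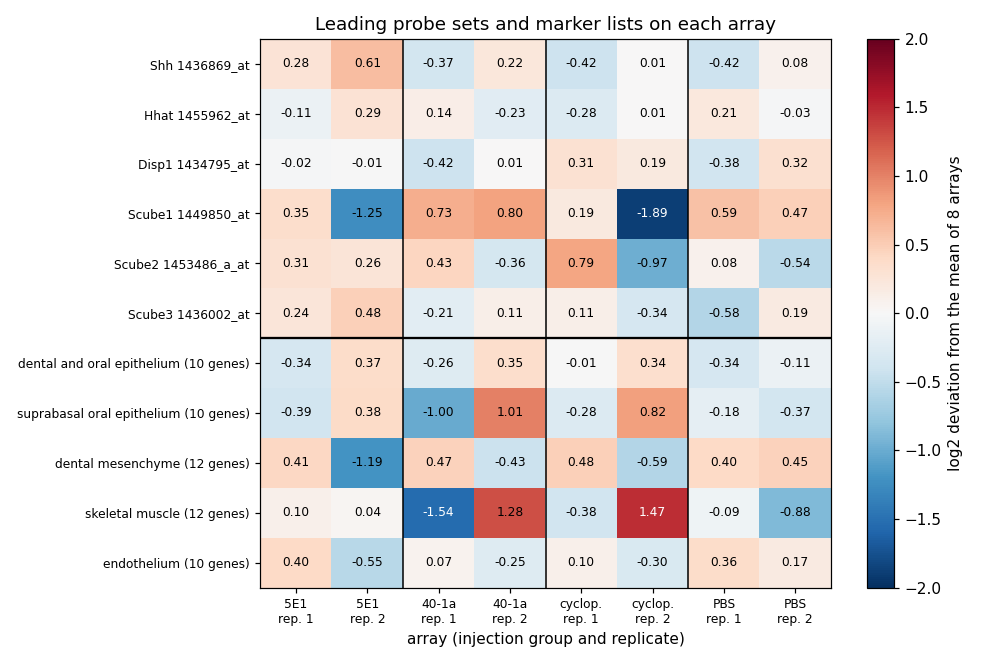
Log2 deviation of each array (columns, by injection group and replicate) from the mean of 8 arrays, for the leading probe set of each gene (top) and the mean of 5 marker lists (bottom). Shh is above its mean on both 5E1 arrays (0.28 and 0.61), and Scube1 is lowest on replicate 2 of 5E1 and of cyclopamine, where dental mesenchyme genes are at -1.19 and -0.59.

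Hhat, the enzyme that palmitoylates Shh, showed no shift beyond the spread between arrays. Its leading probe set, 1455962_at, had signals of 211.0 and 280.5 after 5E1, against 252.5 and 193.5 after 40-1a. After cyclopamine it had 186.7 and 230.4, against 266.8 and 224.2 after PBS. In both comparisons the groups overlapped. The log2 differences were 0.13 (SE 0.29, 95% interval -0.53 to 0.79) for 5E1 and -0.23 (SE 0.29, 95% interval -0.89 to 0.43) for cyclopamine, each with an interval that includes 0. The other probe set, 1425636_at, gave 0.13 (SE 0.47) and -0.19 (SE 0.47), with its lowest signal, 60.2, on cyclopamine replicate 1. Over the 8 arrays the leading probe set ran from 186.7 to 280.5, the narrowest span of the 9, with an SD of 0.20 on the log2 scale.

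Disp1, which exports the lipidated ligand, gave different pictures on its 2 probe sets. The leading one, 1434795_at, had signals of 414.0 and 416.2 after 5E1, against 311.9 and 424.9 after 40-1a. Cyclopamine gave 523.7 and 480.2, against 320.2 and 528.6 after PBS. Both comparisons overlapped, with log2 differences of 0.18 (SE 0.29) and 0.28 (SE 0.29). The second, 1435132_at, had 192.1 and 191.3 after 5E1, against 95.9 and 139.2 after 40-1a, without overlap. The log2 difference was 0.69, or 1.61-fold (SE 0.45, 95% interval -0.35 to 1.73), which did not pass (adjusted p = 1.00, limma). On the same probe set cyclopamine had 72.5 and 197.4, the lowest and the highest of the 8 arrays, against 137.9 and 167.3 after PBS. So the probe sets of Disp1 had opposite signs for cyclopamine, at 0.28 and -0.31, and the sign of the second was set by 1 array, since it was 0.36 without cyclopamine replicate 1.

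**Figure D3:**
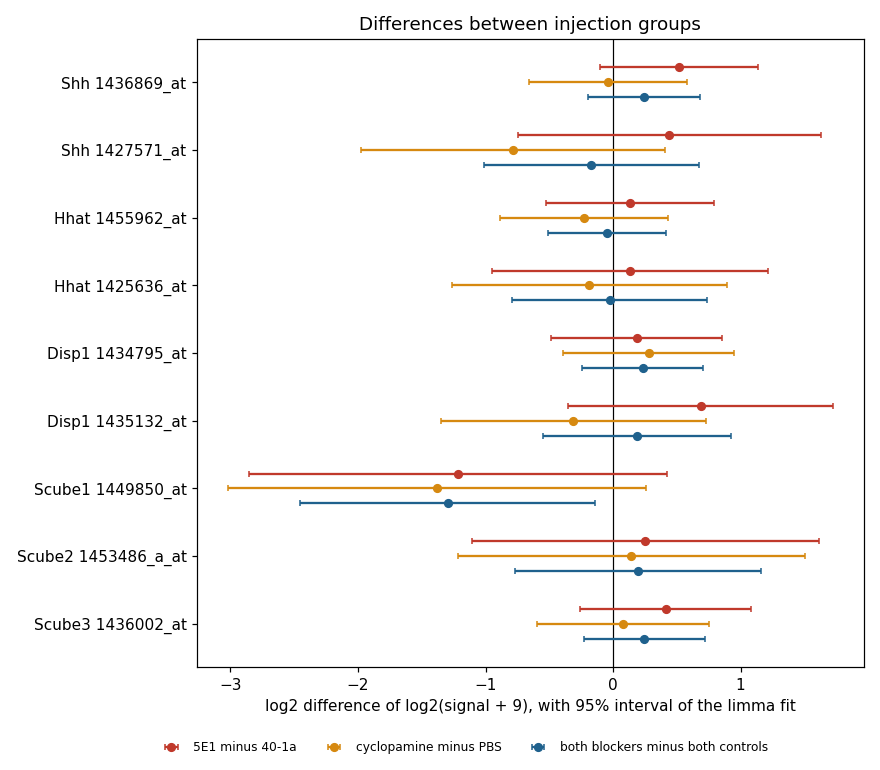
Log2 difference (x axis) with the 95% interval of the limma fit for each probe set (rows), for 5E1 minus 40-1a, cyclopamine minus PBS, and both blocking agents minus both controls. Every interval includes 0 except that of Scube1 for both agents together, which runs from -2.46 to -0.14.

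The 3 Scube genes, whose products release the ligand, did not move together. Scube1 had lower signals after 5E1 than after 40-1a, and after cyclopamine than after PBS. Its only probe set, 1449850_at, had 173.3 and 51.4 after 5E1, against 227.9 and 241.3 after 40-1a. After cyclopamine it had 154.3 and 29.7, against 207.2 and 189.7 after PBS. All 4 arrays of the blocking agents lay below all 4 control arrays, which 0.993% of all probe sets did. The mean was 112 ± 86.2 after 5E1 and 235 ± 9.47 after 40-1a, and 92.0 ± 88.1 after cyclopamine and 198 ± 12.4 after PBS (SD, n = 2 each). For Ptch1, which reads out the blocking, only the 5E1 arrays lay below their controls, while cyclopamine and PBS overlapped.

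On the log2 scale Scube1 differed by -1.21 (SE 0.71, 95% interval -2.85 to 0.43) for 5E1 and by -1.38 (SE 0.71, 95% interval -3.02 to 0.26) for cyclopamine. For both agents together it was 2.46-fold lower, a log2 difference of -1.30 (SE 0.50), with an unadjusted p of 0.0326 that did not pass (adjusted p = 1.00, limma). By that unadjusted p it stood at place 177 of the 23576 probe sets. The 2 effects differed by 0.17 (SE 1.00, 95% interval -2.15 to 2.49), so that the arrays hold little on whether they are of equal size.

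The size of the Scube1 difference came from replicate 2. Within the first array cluster the 5E1 array was lower than the 40-1a array by a log2 difference of -0.38. Within the second cluster the difference was -2.05 for 5E1 against 40-1a and -2.36 for cyclopamine against PBS. Arrays of this cluster were not alike in tissue markers. Skeletal muscle genes had mean log2 deviations of 0.04 on its 5E1, 1.28 on its 40-1a, 1.47 on its cyclopamine and -0.88 on its PBS array. Without 5E1 replicate 2 the antibody difference was -0.42, and without cyclopamine replicate 2 the cyclopamine difference was -0.34. The signals of these arrays, 51.4 and 29.7, lay below the level of the filter, a signal of 60.5. Dental mesenchyme genes were low on the same arrays, with mean log2 deviations of -1.19 on 5E1 replicate 2 and -0.59 on cyclopamine replicate 2. They were at -0.43 on 40-1a replicate 2 and at 0.45 on PBS replicate 2, where Scube1 had signals of 241.3 and 189.7. Of 12 mesenchyme genes, 12 had a lower mean after both agents than after both controls and 0 passed, with summed signals of 36095 to 83570 after 5E1, 49622 to 84618 after 40-1a, 49575 to 75021 after cyclopamine and 74621 to 80014 after PBS, and none at 0. Of 10 endothelial genes, 9 had a lower mean and 1 a higher one, with summed signals of 2921 to 5673, 3802 to 4745, 3554 to 4770 and 4751 to 5558 in the same 4 groups, and none at 0. Between the controls, 12 of 12 mesenchyme genes and 10 of 10 endothelial genes had a lower mean after 40-1a than after PBS. The median log2 differences were -0.51 and -0.38. The part of the mesenchyme and endothelial genes in the Scube1 difference was not tested. Relative to the mean of the mesenchyme genes on each array, Scube1 was at -0.85 for both agents together.

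Scube3 went the other way after the antibody. Its probe set, 1436002_at, had signals of 1297 and 1531 after 5E1, against 944.4 and 1183 after 40-1a. Both 5E1 arrays were above the other 6. After cyclopamine it had 1183 and 862.6, against 730.3 and 1248 after PBS, with the cyclopamine arrays inside the range of PBS. The antibody difference of 1.33-fold, 0.41 on the log2 scale (SE 0.29, 95% interval -0.26 to 1.09), did not pass (adjusted p = 1.00, limma). It was 0.45 within the first array cluster and 0.37 within the second, and 0.25 to 0.57 with each array left out in turn. For cyclopamine the difference was 0.08 (SE 0.29), with a sign that turned when replicate 1 of cyclopamine (-0.15) or of PBS (-0.30) was left out.

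Scube2, whose product is known for releasing Shh from cultured cells, showed no shift with either agent beyond the spread between arrays. Its probe set, 1453486_a_at, had 112.6 and 108.7 after 5E1, against 122.8 and 67.4 after 40-1a. The cyclopamine values were 160.6 and 40.9, the highest and the lowest of all 8 arrays, against 94.5 and 58.3 after PBS. The log2 differences of 0.25 (SE 0.59) and 0.14 (SE 0.59) were smaller than the gap between the arrays of 40-1a, of cyclopamine and of PBS, while the 5E1 arrays lay close together. Replicate 1 was above replicate 2 in 4 of 4 groups, with differences of replicate 2 minus replicate 1 between -1.76 and -0.05 on the log2 scale.

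Promoter stretches of Scube1 and Scube3 are shown because these genes differed in direction after 5E1. Both run 5′ to 3′ over the 250 bases before the start that the RefSeq promoter table (build GRCm38.p6) uses for the gene, with chr15:83725040-83725289 on the minus strand for Scube1 and chr17:28142059-28142308 on the plus strand for Scube3. That start need not be the outermost one: 12 bases of the Scube1 stretch and 209 of the Scube3 stretch lie inside the span that RefSeq gives the gene. Capitals mark CCACCC or its reverse complement GGGTGG, 6 bases within the 9-base GLI site GACCACCCA that the Hedgehog pathway's transcription factors bind.
Scube1: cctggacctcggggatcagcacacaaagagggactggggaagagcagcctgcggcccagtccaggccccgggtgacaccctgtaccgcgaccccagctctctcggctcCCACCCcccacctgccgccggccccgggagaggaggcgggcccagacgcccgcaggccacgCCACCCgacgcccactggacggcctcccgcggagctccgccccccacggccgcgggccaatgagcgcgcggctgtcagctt
Scube3: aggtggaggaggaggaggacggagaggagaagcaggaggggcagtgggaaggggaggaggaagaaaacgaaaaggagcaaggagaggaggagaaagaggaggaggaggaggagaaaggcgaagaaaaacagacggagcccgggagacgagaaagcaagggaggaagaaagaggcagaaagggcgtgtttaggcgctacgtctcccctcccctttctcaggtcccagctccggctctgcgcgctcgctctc
The full site, on either strand, was in none of the 6 such windows that RefSeq gave for Disp1 (2 windows), Hhat, Scube1, Scube2 and Scube3, and in 0.225% of the 32851 windows of all genes. The 6-base part occurred in the Scube1 window 2 times and in none of the other 5, while 28.1% of all windows held it. These matches describe letters in a window and say nothing on binding.

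The 2 control groups were also set against each other. For 40-1a against PBS limma called 0 of all probe sets (0%), with 168 (0.713%) at an unadjusted p under 0.05, and none of the 9 was among them. The differences ran from -0.37 for the second Disp1 probe set to 0.27 for Scube2. The leading Shh probe set was at 0.09 (SE 0.27, 95% interval -0.53 to 0.71). Only for Scube1 did both arrays of 40-1a, 227.9 and 241.3, lie above both of PBS, 207.2 and 189.7, which 10.4% of all probe sets did, and none of the 9 lay below without overlap (10.7% over all). Of the 9, 6 had a higher and 3 a lower mean (49.5% higher over all).

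**Figure D4:**
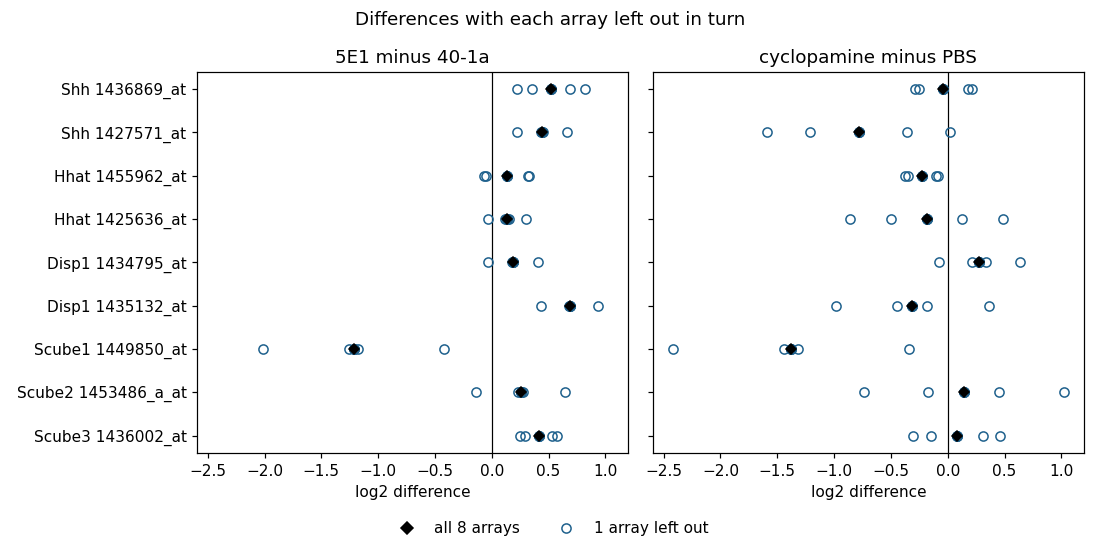
Log2 difference (x axis) of each probe set (rows) with all 8 arrays (black diamonds) and with each array left out in turn (open circles), for 5E1 minus 40-1a (left) and cyclopamine minus PBS (right). Both Shh probe sets, the second Disp1 probe set and Scube3 stay above 0 for 5E1 in all 8 fits and Scube1 stays below 0 in both panels, between -2.42 and -0.34, while 7 of the other 8 probe sets cross 0 for cyclopamine.

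On the receiving side of the pathway the largest differences after 5E1 were lower signals of Ptch1, Gli1 and Hhip. Of 17 genes for reception, transduction and feedback, 16 were tested, 10 with a lower and 6 with a higher mean after 5E1 than after 40-1a, and 0 passed, with a median log2 difference of -0.06. Both 5E1 arrays lay below both 40-1a arrays on 6 of the 16 (11.2% over all) and above both on 1 (9.35% over all). Ptch1 was at -2.31 (SE 0.30), the induced transcription factor Gli1 at -2.22 (SE 0.40) and Hhip, a decoy receptor for the ligand, at -1.58 (SE 0.47). The unadjusted p of limma was under 0.05 for these 3 and for none of the other 13, beside 1% over all probe sets. The Hhip signals after 5E1, 35.0 and 31.5, lay below the level of the filter, a signal of 60.5. After cyclopamine 8 of the 16 had a lower and 8 a higher mean than after PBS, with a median of 0.04 and 0 passing. In that comparison Ptch1 was at -0.27 (SE 0.30), Gli1 at 0.08 (SE 0.40) and Hhip at -0.63 (SE 0.47). For each of them the cyclopamine and PBS arrays overlapped. Of the relatives of the members, Hhatl, which resembles Hhat, was the only one of 5 tested, at -0.15 (SE 0.46) after 5E1. The other ligand genes Ihh and Dhh, and Disp2 and Disp3, lay below the filter.

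A further list held 12 genes of the enamel knot and tooth epithelium, not all of them for secreted signals. Of these 12, 10 had a higher mean after 5E1 than after 40-1a, as Shh and Scube3 did, 2 had a lower one and 0 passed. Their median log2 difference was 0.53, beside -0.01 over all probe sets. Bmp2 was at 0.78 (SE 0.24) and Fgf9 at 1.04 (SE 0.36), while Sostdc1, which encodes a secreted BMP antagonist, was at -1.18 (SE 0.20). After cyclopamine 6 of the 12 had a higher mean than after PBS, with a median of -0.03, beside -0.03 over all probe sets.

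The genes whose values over the 8 arrays lay nearest to those of a member were found by the root mean square difference of their log2 deviations. For Shh, with an SD of 0.38 over the arrays, these were Faah (0.10), Eef1e1 (0.11), Pth2 (0.11), Gm9918 (0.15) and Thnsl1 (0.16), out of 8650 genes whose SD reached at least 50% of that. For Scube3, with an SD of 0.35, the nearest were Etv5 (0.10), a transcription factor induced by FGF signals, Stac (0.11), 5033430I15Rik (0.15), Tubb3 (0.15) and Pnpla3 (0.17). For Scube1, with an SD of 1.00, they were Flvcr2 (0.26), Clec1a (0.28), Gckr (0.41), Celf5 (0.42) and Muc13 (0.42). For Scube2 the 5 nearest, led by Pisd-ps3 (0.25), lay at up to 0.28, beside an SD of 0.58. All these genes were read on the same 8 arrays, so differences in tissue make-up between arrays enter every one of these values.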

How the data were processed

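RNA of mandibular molar tooth germs was measured on 8 Affymetrix mouse arrays, 2 in each of 4 injection groups, grouped by sample title. The authors deposited 1 linear intensity for each probe set and array, and the submitters' processing notes name MAS5. MAS5 scales each array by 1 factor, and no further scaling was applied. No version or scan batch was found in the labels. Precision is limited by how few arrays there are, which leave 4 residual degrees of freedom.

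Of 45101 probe sets, 64 were controls, 34945 had exactly 1 gene, 932 several and 9160 none. Symbols were updated through the gene identifiers, of which 34754 were found in RefSeq. Tests used log2(signal + 9), a pseudocount near the 10th percentile of the signals, so changes of weak genes are understated. Single-gene probe sets were kept if their mean reached the 40th percentile on the array, which left 23576. Limma 3.58.1 in R 4.3.3 fitted 4 group means to all 8 arrays (lmFit, contrasts.fit, eBayes with trend). Contrasts were 5E1 minus 40-1a, cyclopamine minus PBS, both agents minus both controls, 40-1a minus PBS, and the difference of the 2 effects. No level of one probe set was set against that of another. Tested on simulated data for 5E1 minus 40-1a with 200 of 23576 probe sets changed, the fit called 6 of 100 changes of 1 and 52 of 100 changes of 2 on the log2 scale. These shares hold for that number and size of changes and need not hold for the data. There limma called 0 probe sets in this contrast, and Ptch1 at -2.31 did not pass.

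The members, gene lists and alternatives were chosen with earlier results of these data known. Named genes follow a rule set with them: all member probe sets, Ptch1, Gli1 and Hhip, up to 4 list members by p in the pooled contrast, and the 5 nearest genes of Shh and each Scube gene. The alternatives were quantile normalisation, other pseudocounts, no level filter, 1 probe set per gene, no trend, only the groups compared, replicate and array cluster blocks, and each array left out.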

Additional observations from a re-analysis of the deposited data

How the results depend on the processing

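Under each setting, the 9 probe sets stayed without a call in all 5 comparisons, including each fit with 1 array left out. Of all 23576 probe sets limma called 0 in each comparison, except 1 (5E1 against 40-1a) with the replicate block, 2 (5E1 against 40-1a) and 1 (cyclopamine against PBS) with the array cluster block, and 175 (cyclopamine against PBS) and 9 (both agents against both controls) without cyclopamine replicate 2, so the counts ran from 0 to 175 and 0 to 9. The cause was not tested. The labels do not say that a replicate number marks a shared litter or day, and deviations of same-numbered arrays correlated at 0.56 between 5E1 and 40-1a at 0.03 between cyclopamine and PBS, at 0.37 between 40-1a and PBS and at 0.18 between 5E1 and cyclopamine. With 2 arrays a group and no pairing in the labels, the numbers were not taken as pairs. In this balanced layout a replicate block cannot change a member difference, only its SE and p. On the leading Shh probe set replicate 2 was higher by 0.33 to 0.60 in every group. Such a shared shift counts as scatter in the SEs and intervals given here, and can widen them. Member differences for 5E1 against 40-1a kept their sign in all of the 9 other settings without a left-out array. Of these settings, only quantile normalisation, the other pseudocounts and the array cluster block could change a difference. The rest leave the differences of group means as they are, so the kept sign was fixed there in advance. With the array cluster block these turned sign, for cyclopamine against PBS Hhat second at 0.44, Disp1 second at 0.23, Scube2 at -0.50 and Scube3 at -0.37, for both agents against both controls Shh second at 0.12, Hhat at 0.043, Hhat second at 0.29 and Scube2 at -0.12, for the antibody effect minus the cyclopamine effect Hhat second at -0.31 and Disp1 at 0.16. With quantile normalisation these turned sign, for both agents against both controls Hhat at 0.030 and Hhat second at 0.10. Relative to the epithelial markers on each array, chosen after seeing the data, these turned sign, for cyclopamine against PBS Disp1 at -0.11, Scube2 at -0.24 and Scube3 at -0.30, for 40-1a against PBS Shh at -0.18, Shh second at -0.20, Hhat second at -0.035, Scube1 at -0.036, Scube2 at -0.0025 and Scube3 at -0.12, for the antibody effect minus the cyclopamine effect Disp1 at 0.32. In the array cluster block cyclopamine replicate 1 stands alone and has no part in the fit. The second probe sets are named as such. With 1 array left out some differences crossed 0. For 5E1 against 40-1a the ranges were -0.033 to 0.40 for Disp1, -0.030 to 0.30 for Hhat second, -0.065 to 0.33 for Hhat and -0.14 to 0.65 for Scube2. For cyclopamine against PBS the ranges were -0.075 to 0.63 for Disp1, -0.98 to 0.36 for Disp1 second, -0.86 to 0.49 for Hhat second, -0.74 to 1.02 for Scube2, -0.30 to 0.46 for Scube3, -1.59 to 0.020 for Shh second and -0.29 to 0.21 for Shh. For both agents against both controls the ranges were -0.15 to 0.52 for Disp1 second, -0.36 to 0.31 for Hhat second, -0.15 to 0.051 for Hhat, -0.24 to 0.64 for Scube2 and -0.57 to 0.23 for Shh second. For 40-1a against PBS the ranges were -0.53 to 0.18 for Disp1, -0.078 to 0.55 for Hhat second, -0.32 to 0.044 for Hhat, -0.13 to 0.66 for Scube2, -0.24 to 0.53 for Scube3, -0.36 to 0.49 for Shh second and -0.21 to 0.39 for Shh. For the antibody effect minus the cyclopamine effect the ranges were -0.45 to 0.26 for Disp1, -0.35 to 0.99 for Hhat second, -0.87 to 1.21 for Scube1, -0.77 to 0.99 for Scube2 and -0.052 to 0.71 for Scube3. The cause of these shifts was not tested, and signals below 60.5 on 1 or 2 arrays limit Scube1, Scube2 and the second Hhat probe set.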
